A study of Homo sapiens with 9 samples.

Results

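QKI-5 HITS-CLIP peaks that lay antisense to annotated genes are described here. A peak was taken as antisense where its centre fell in no gene of its own strand but inside at least 1 gene of the opposite strand. Of the 24019 nuclear peaks of the deposited list (hg19), 818 met this rule (3.41%, 95% Wilson interval 3.18 to 3.64), against 22692 peaks centred in a gene of their own strand and 509 in no gene of either strand (called intergenic below). The rule used position and strand only, with the GENCODE genes lifted to this build, and motif content, height and copy number do not enter it.

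The peaks come from mesHMLE cells, a mesenchymal derivative of the immortalised human mammary epithelial line HMLE. They were obtained with at least 14 days of TGF-β1 at 2.5 ng/ml and then kept in the same medium without further TGF-β1. Cells were UV crosslinked at 600 mJ/cm2 and QKI-5 was immunoprecipitated. The series holds 7 immunoprecipitation libraries, 3 from the monomer and 4 from the dimer region of the gel, 1 of them made with SuperScript IV, and 2 size-matched input libraries. The labels call the libraries technical replicates and they were pooled before peaks were called, so each peak has 1 value and no spread between libraries can be given. Every interval below covers counting error over peaks only, and neighbouring peaks or copies of 1 sequence are not independent.

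Quaking (QKI) is a STAR-family RNA-binding protein that regulates splicing, stability and localisation of RNA, and QKI-5 is its nuclear isoform. It recognises the core sequence ACUAAC, written ACTAAC here, usually with a nearby UAAY element. RNA antisense to an annotated gene can arise where transcription runs on past the end of a neighbouring gene, where promoters fire in both directions, or from unannotated transcripts. Alu elements, which descend from the 7SL RNA of the signal recognition particle, are spread through introns and 3′ untranslated regions in both orientations.

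Sequences are printed for 2 kinds of member, as 30 bases of the peak 5′ to 3′ on the peak's strand (hg19). The first are the 2 GT repeats among the 10 tallest antisense peaks, with the repeat in capitals.
C10orf71 (chr10:50534974-50535003, minus strand): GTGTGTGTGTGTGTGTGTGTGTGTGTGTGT
ENSG00000277701 (chr2:97948296-97948325, minus strand): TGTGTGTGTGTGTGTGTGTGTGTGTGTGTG

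The second set holds the 5 tallest antisense peaks with the QKI core motif. After them come the 3 next tallest with the motif among those within 5000 nt past a gene end on their own strand. Capitals mark ACTAAC.
CD302 (chr2:160631218-160631247, plus strand): aacccagcttggACTAACttgacctttcct
PCGF3 (chr4:739575-739604, minus strand): tccacggcgaacACTAACactgcagcgacc
ENSG00000287916 (chr3:156244804-156244833, minus strand): ctgctaattgcaACTAACatttctctgcct
SHOC1 (chr9:114486546-114486575, plus strand): ctttcttctactACTAACcctctcctctgt
PTRH2 (chr17:57778440-57778469, plus strand): ccagacatacaaACTAACctccatccacac
KMT2E (chr7:104749973-104750002, minus strand): ttctgaagaagcACTAACcctggttgttct
RBM4B (chr11:66435887-66435916, plus strand): ttggagtcatacACTAACaccttgacaggc
RBM4B, second peak (chr11:66435954-66435983, plus strand): agACTAACatgtaatttgcaccttttggat

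In both lists the gene named is the opposite gene, on the strand that the peak is not on. None of the 10 tallest antisense peaks held ACTAAC.

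Most antisense peaks lay in repeated sequence. For every peak the number of times each of its 20-mers occurs on either strand of the genome was counted, and the median over the peak was taken as its copy number. The median copy number was 541 for the 800 antisense peaks of at least 20 nt, and 1 for both peaks in same-strand genes and intergenic peaks. Of the antisense peaks, 511 of 800 had 10 copies or more (63.9%, 60.5 to 67.1) and are called multicopy below. The same held for 11.6% of peaks in same-strand genes and 16.3% of intergenic peaks. The difference was 52.3 percentage points to the former (95% Newcombe interval 48.9 to 55.6) and 47.5 to the latter (42.7 to 52). The other 289 antisense peaks are called low-copy, and 257 of these had 1 copy. A further 18 members were too short to hold a 20-mer and enter no count by copy number.

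**Figure D1:**
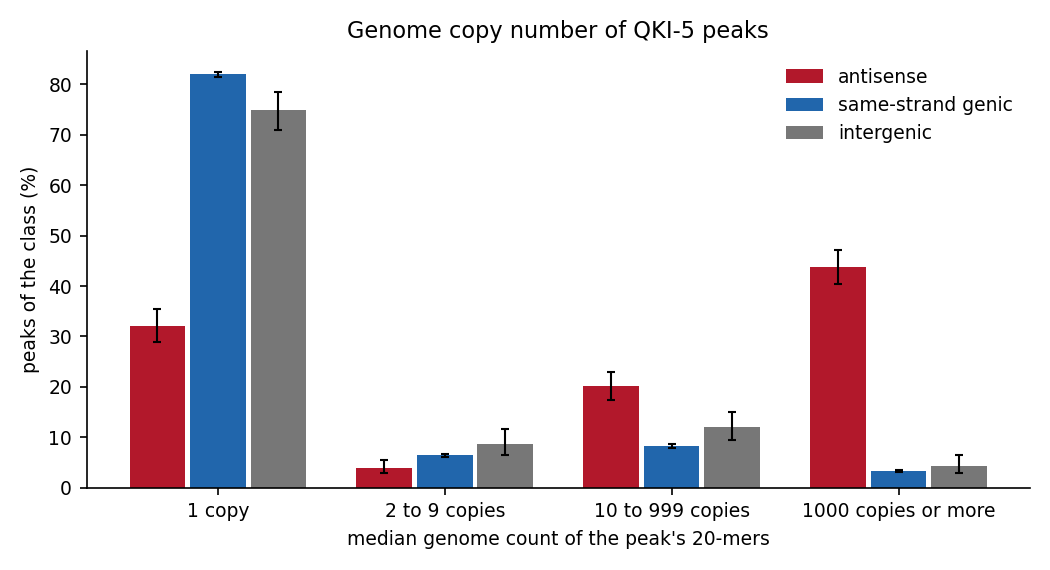
Share of peaks (%) in 4 classes of genome copy number, for antisense, same-strand genic and intergenic peaks; error bars are 95% Wilson intervals. Antisense peaks were most often at 1000 copies or more (43.8%), where 3.35% of same-strand genic and 4.38% of intergenic peaks fell.

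Sequence related to 7SL RNA made up most of the multicopy members. Aligned to RN7SL2 (chr14:50329271-50329567, minus strand, 297 nt), 397 of the 818 antisense peaks gave a match (48.5%, 45.1 to 52), against 12.3% of peaks in same-strand genes and 13.2% of intergenic peaks. The median match covered 40 nt at 83.3% identity, short of a full match to 7SL. Of the 397, 235 matched the reverse strand of 7SL and 162 its own strand. The share in reverse orientation was 59.2% (54.3 to 63.9), beside 60.3% among the 7SL-related peaks of same-strand genes (58.5 to 62.1). Matches clustered at the ends of the RNA: 173 of the 235 reverse matches lay in its last 50 nt, and 141 of the 162 forward matches in its first 100 nt.

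Small RNAs were also searched by shared 20-mers with their annotated genes and copies. For 7SL and its 848 annotated genes and copies, 400 members shared a 20-mer on their own strand and 373 in reverse, of which 45 and 47 had given no match to RN7SL2. No antisense peak shared a 20-mer with U1, U5, U11, U12, 5.8S rRNA, vault RNA or RPPH1 on either strand. Members shared 20-mers on their own strand with annotated copies of U2 (101 peaks), 7SK (149), U4 (19), U6 (31), U7 (14), Y RNA (23), 5S rRNA (9) and RMRP (32). Nearly all of these were also 7SL-related: leaving those out, 5 peaks remained for U2, 13 for 7SK, 2 for 5S rRNA, 1 each for U4 and U6, and 0 for U7, Y RNA and RMRP. In reverse the counts were U2 (19), 7SK (145), U4 (10), U6 (91), U7 (10), Y RNA (38), 5S rRNA (5) and RMRP (41). All of these counts cover antisense peaks only. Without the same shares in other peaks, they do not show whether such sharing is particular to antisense peaks.

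A further 123 multicopy members had no blastn match to RN7SL2, although some shared 20-mers with its annotated copies as above, and 61 of them shared no 20-mer with another of the 123. The largest group linked by shared 20-mers held 13 peaks in 6 places, opposite ANKRD20A9P, BBS5, GOSR1, MRGPRX3, SMG1P7 and ZNF566-AS1, with a median height of 184 and a maximum of 453. The next held 10 peaks opposite 10 different genes and was low, with a median height of 19.5. A group of 4 peaks opposite ABCC9, RBM28 and SLC9A4 had a median height of 125. No repeat annotation was used, so these groups are not named. Of the 511 multicopy members, 469 shared at least 1 20-mer with a peak in a same-strand gene in the same orientation (91.8%) and 433 with one in reverse orientation (84.7%). Of the low-copy members 8 and 11 of 289 did. The copy groups rest on genome counts of these same 20-mers, so this contrast follows in part from how the groups were defined.

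The multicopy peaks were found opposite exons. Centres of 392 of the 511 multicopy members lay opposite an exon annotated as untranslated region (UTR) and absent from any coding exon (76.7%, 72.9 to 80.2). Of the bases that the rule could pick genome-wide, 2.58% are of this kind. Counting exons of every type, 89.4% of multicopy members lay opposite an exon, against 7.78% of the bases. The aligner had been given a gene annotation, and whether it therefore placed reads of repeated sequence on annotated exons was not tested, so these shares describe where the peaks were listed. Low-copy members were mostly opposite introns: 209 of 289 (72.3%, 66.9 to 77.2), against 92.2% of the bases, with 40 opposite a UTR exon (13.8%). The UTR share of multicopy members was 62.9 percentage points above that of low-copy members (95% Newcombe interval 57 to 67.8). For exons of every type the antisense shares were 89.4% for multicopy and 27.7% for low-copy members. Among peaks in same-strand genes 29.8% of multicopy and 20.7% of low-copy peaks were centred in an exon of their own strand, a smaller contrast.

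**Figure D2:**
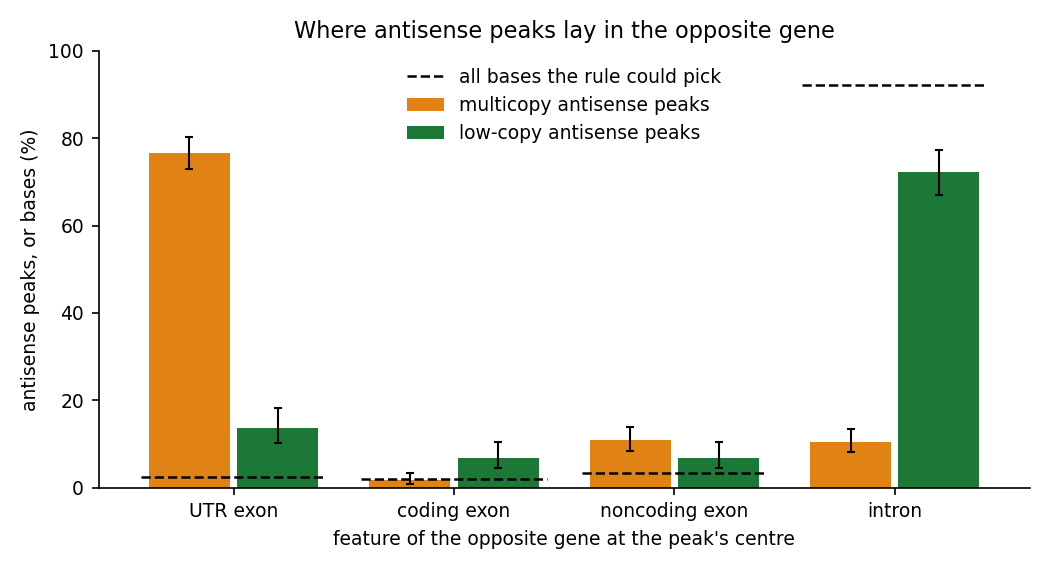
Share of antisense peaks (%) by what the opposite gene holds at the peak's centre, for 511 multicopy and 289 low-copy members, with 95% Wilson intervals; dashed lines give the share of all bases the rule could pick. Multicopy members were opposite UTR exons in 76.7% of cases and low-copy members opposite introns in 72.3%.

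Over all 818 members, 441 lay opposite a UTR exon, 34 opposite a coding exon, 76 opposite an exon of a noncoding gene or transcript and 267 opposite an intron. Of the 441, 350 were past the last coding base of the opposite gene (79.4%, 75.3 to 82.9), 27 were before the first coding base and 64 were between coding bases. Past the last coding base lay 323 of the 392 multicopy members opposite a UTR exon (82.4%) and 20 of the 40 low-copy ones (50%). How UTR bases divide between these sides was not counted. The opposite gene was protein-coding for 693 members and a lncRNA gene for 91. Members lay in 678 opposite genes, 569 of them protein-coding, and 253 of the 678 also held a peak on their own strand (37.3%). Over all protein-coding genes the share with a peak was 23.6%. The 678 opposite genes include other gene types, so the sets differ, and gene length and expression were not matched. For 85 members more than 1 opposite gene covered the centre.

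Over all copy groups antisense peaks were slightly taller than the rest, and nearly all of the tall ones were multicopy. Height is the value the list gives for each peak, a signal whose exact definition was not given in the sources used here. The median height was 25 over antisense peaks (95% order-statistic interval 24 to 26, quartiles 19 and 39), and 23 over same-strand genic (23 to 23) and intergenic peaks (22 to 24). Multicopy members had a median of 28 (26 to 29) and low-copy members 23 (22 to 25). A height of 100 or more was reached by 67 antisense peaks (8.19%), of which 64 were multicopy and 1 was low-copy. By comparison, 3.73% of peaks in same-strand genes and 1.96% of intergenic peaks were that tall. Among multicopy peaks the shares were 12.5% for antisense, 5.84% for same-strand genic and 3.66% for intergenic peaks. Among low-copy peaks they were 0.346%, 3.49% and 1.67%, so antisense peaks had the lowest share there. Among the 67, 63 lay opposite an exon. Members matching the reverse strand of 7SL had a median height of 29 (27 to 33), and those matching its own strand 25 (23 to 28).

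The tallest antisense peak (height 796) was a GT repeat opposite the UTR of C10orf71, and a second GT repeat opposite the lncRNA gene ENSG00000277701 stood at 348. Opposite BBS5, which encodes a subunit of the BBSome complex of cilia, the tallest peak stood at 453. The peak opposite SKA1, a kinetochore protein gene, reached 379 and matched 7SL on its own strand. Peaks opposite CDC40 (353), a splicing factor gene, YME1L1 (296), a mitochondrial protease gene, the lncRNA HCG11 (274) and the calcium channel gene ORAI2 (262) matched 7SL in reverse. The remaining members of the 10 were opposite RBM28 (302) and the Golgi SNARE gene GOSR1 (264). All 10 were multicopy, and 8 lay opposite UTR exons and 2 opposite exons of lncRNA genes.

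The QKI core motif was less frequent in antisense peaks than in the others, and copy number moved with that difference. ACTAAC was present in 37 of 818 antisense peaks (4.52%, 3.3 to 6.17), where 10.1% of all nuclear peaks held it. The share was 10.3% in peaks of same-strand genes and 9.43% in intergenic peaks. Antisense peaks were lower by 5.74 percentage points than the former (95% Newcombe interval of the signed difference -7.03 to -4.05) and differed by -4.91 from the latter (-8.01 to -2.12). Among low-copy peaks the share was 11.8% for antisense (34 of 289, 8.54 to 16), 11.6% for same-strand genic and 11.4% for intergenic peaks, and the antisense difference to same-strand genic peaks was 0.124 points (-3.13 to 4.37). Among multicopy peaks it was 0.587% for antisense (3 of 511) and 1.04% for same-strand genic peaks, a difference of -0.457 points (-1.07 to 0.714). Within either copy group the interval therefore held 0.

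**Figure D3:**
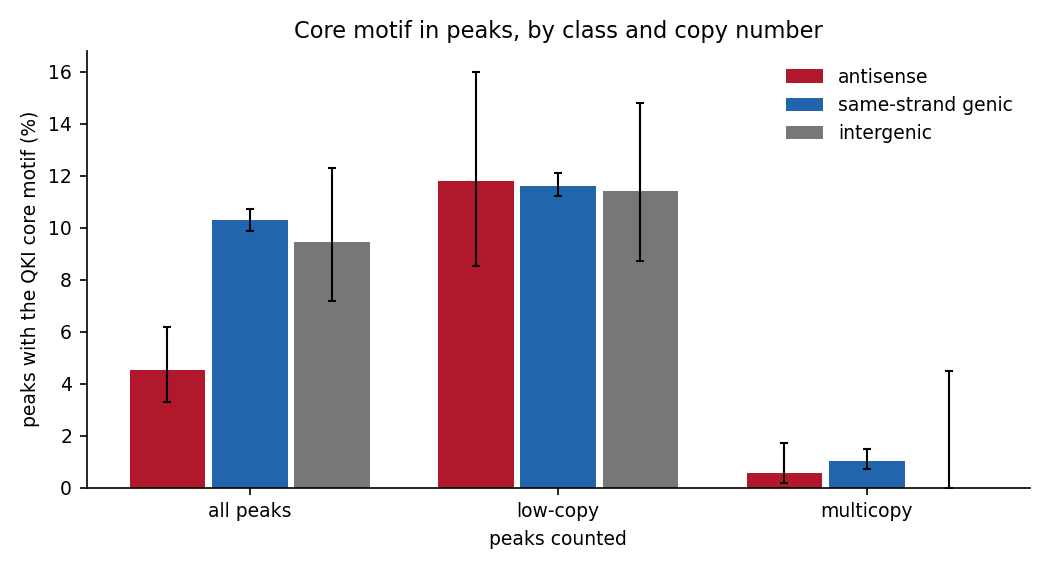
Share of peaks (%) holding the core motif ACTAAC in antisense, same-strand genic and intergenic peaks, for all peaks and by copy group, with 95% Wilson intervals. The low antisense bar over all peaks (4.52%) stood at 11.8% among low-copy peaks, beside 11.6% and 11.4%, and every multicopy bar was near 0.

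Each antisense peak was also compared with windows of its own length 500 nt to either side. ACTAAC was in the peak but not in the 5′ window in 35 cases and in the window alone in 12, a ratio of 2.92 (exact McNemar test, two-sided, p = 0.0011). For the 3′ window the counts were 34 and 7 (exact McNemar test, p = 2.5e-05). In low-copy members the counts were 33 against 6 for the 5′ side (exact p = 1.4e-05) and 32 against 4 for the 3′ side (exact p = 1.9e-06). In multicopy members they were 2 against 6 (exact p = 0.29) and 2 against 3 (exact p = 1), too few to show a difference in either direction. These tests took peaks as independent, which neighbouring peaks of 1 run are not. With only the tallest peak of each run, over all members, the ratio was 2.9 (exact McNemar test, larger p of both sides, p = 0.0034). The copy groups were not tested in that way. Around the centres of low-copy members, 36 of the 130 ACTAAC sites within 250 nt lay within 25 nt (27.7%, 20.7 to 35.9), where sites spread evenly would give 10.2%. Surroundings of neighbouring members overlap, so these sites are not independent. Antisense peaks had a median width of 54 nt, so the central part is mostly the peak itself. The share is thus not separate from the counts against windows.

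Related motifs were counted in the same way. TACTAAC was found in 10 low-copy members (3.46%, 1.89 to 6.25). It was in 5.41% of low-copy peaks in same-strand genes and in 7.14% of low-copy intergenic peaks (5.05 to 10). ACTAAC or ACTAAT was found in 48 low-copy members (16.6%, 12.8 to 21.3), beside 15.8% of low-copy same-strand genic and 14% of low-copy intergenic peaks. Either of these followed after 1 to 20 nt by TAAC or TAAT is the 2-part QKI element. It was found in 8 of 289 low-copy members (2.77%), 2.96% of low-copy same-strand genic and 3.1% of low-copy intergenic peaks. ACTAAC on the strand opposite to the peak was present in 2 of the 818 (0.244%), beside 0.687% of all nuclear peaks, and both were low-copy (0.692% of 289). The polyadenylation signal AATAAA was in 0 of 818 antisense peaks. This allows a share of up to 0.367% by the limit of 3 counts (Wilson upper limit 0.467%). It was in 1.3% of peaks in same-strand genes and 0.786% of intergenic peaks (4 of 509, 0.306 to 2). Among low-copy members alone it was 0 of 289, which allows up to 1.04% by the same limit (Wilson 1.31%). Low-copy same-strand genic peaks stood at 1.46% and low-copy intergenic peaks at 0.952%. The intergenic value lies within what the low-copy limits allow.

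The 5 tallest members with the core motif had heights of 81 (CD302), 79 (PCGF3), 70 (ENSG00000287916), 62 (SHOC1) and 55 (PTRH2). The peak opposite PCGF3, a Polycomb ring finger gene, was the exception to low copy number, at 17 copies, and the others had 1 copy. The peaks opposite CD302 and PTRH2 lay 3702 nt past the end of MARCHF7, a ubiquitin ligase gene, and 4145 nt past the end of CLTC, the clathrin heavy chain gene. The 3 others were 11210 nt or more from a same-strand gene end.

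Antisense peaks lay close behind the ends of genes on their own strand more often than the available bases did. The median distance back to the nearest such end was 17298 nt (14852 to 20529), ranging from 23 to 794277 nt. Within 5000 nt lay 175 of 818 members (21.4%, 18.7 to 24.3), against 5.45% of the bases the rule could pick. The share was 32.5% for low-copy (94 of 289, 27.4 to 38.1) and 15.3% for multicopy members (78 of 511, 12.4 to 18.6), a difference of 17.3 points (95% Newcombe interval 11.1 to 23.5). Median distances were 9834 nt for low-copy and 22516 nt for multicopy members. Gene density and expression differ along the genome and were not matched in the share of bases.

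**Figure D4:**
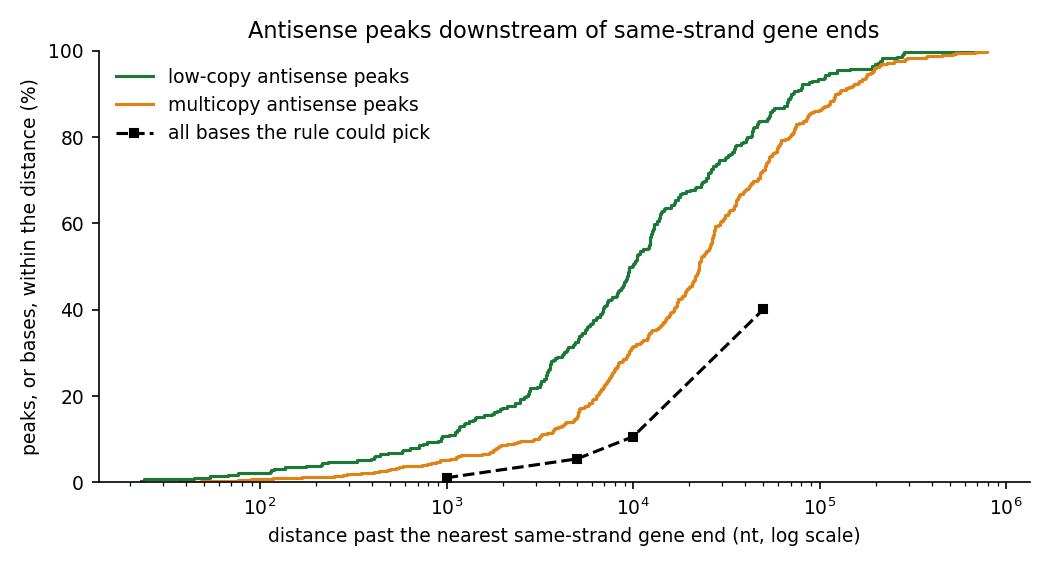
Cumulative share (%) of antisense peaks within a distance (nt, log scale) past the nearest same-strand gene end, for 289 low-copy and 511 multicopy members; squares give the share of all bases the rule could pick. At 5000 nt the lines stood at 32.5% and 15.3%, and the bases at 5.45%.

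The 175 members followed 145 genes, 92 of them protein-coding. Of the 50 protein-coding genes followed by a low-copy member, 29 held a QKI-5 peak of their own (58%, 44.2 to 70.6), as did 16 of the 44 followed by a multicopy member (36.4%, 23.8 to 51.1). Of all protein-coding genes 23.6% did, a share that was not limited to genes expressed in these cells. Expression was not matched in this comparison. The gene followed by the most was RBM12B, with 5 members 2476 to 3581 nt past its end (heights 18 to 76) opposite CIBAR1. C21orf58 was followed by 4 members opposite YBEY, 2588 to 3909 nt away with heights of 11 to 34. MPC1L was followed by 3 multicopy members opposite CXorf38 and held no peak itself. SUV39H2, a histone methyltransferase gene, was followed by 3 low-copy members opposite DCLRE1C, 1790 to 2341 nt away, 2 of them with ACTAAC. Several genes were tied at 2 members, among which MARCHF7 had the tallest peak (81).

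Some peaks with the motif lay directly behind a gene. The closest, opposite CDAN1, was 24 nt past the end of ENSG00000278769. The splicing regulator gene RBM4 held 17 peaks within its bounds, and 2 further peaks (heights 31 and 29) lay 54 and 136 nt past its end, opposite an intron of RBM4B, each with ACTAAC. Another peak with the motif, opposite KMT2E, lay 1172 nt past the end of SRPK2, which encodes a kinase of SR splicing factors. These were picked out after their values were seen. Among low-copy members the motif share was 13.8% within 5000 nt of a gene end (13 of 94, 8.26 to 22.2) and 10.8% beyond it (21 of 195, 7.15 to 15.9), intervals that overlap.

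Fewer members lay near the start of the opposite gene than past a same-strand gene end. The counts were 42 against 59 within 1000 nt and 120 against 175 within 5000 nt. The median distance to the start of the opposite gene was 27916 nt (25902 to 32050). Within 1000 nt lay 42 members (5.13%, 3.82 to 6.87), against 2.16% of the bases. The share was 7.96% for low-copy (23 of 289, 5.36 to 11.7) and 3.72% for multicopy members (19 of 511, 2.39 to 5.73). The tallest of the 42 were opposite ZNF566-AS1 (heights 222 and 80, at 962 and 849 nt), the receptor gene MRGPRX3 (211, at 85 nt), SMG1P7 (42, at 584 nt) and the vomeronasal receptor gene VN1R2 (42, at 34 nt). All 5 were multicopy. The 2 opposite ZNF566-AS1 also lay 709 and 596 nt ahead of the start of ZNF566 on their own strand.

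Members came mostly singly. Joined where same-strand centres were within 1000 nt, the 818 formed 657 runs, of which 548 held 1 peak and 109 held 2 or more. The longest run held 10 multicopy peaks over 1299 nt opposite the UTR of BBS5, with heights of 14 to 453 and a median of 120. A run of 8 opposite an intron of IL12RB2, an interleukin receptor subunit gene, was of another kind. Its peaks each had 1 copy, spanned 1774 nt, had heights of 11 to 51 and held no ACTAAC, and it began 12894 nt past the end of SERBP1. The third run held 6 multicopy peaks opposite GOSR1 (heights 21 to 264). The next 2 held 5 peaks each, opposite CIBAR1, which are those behind RBM12B, and opposite the glutamate receptor gene GRIN2D, where heights of 16 to 47 were seen at 1 copy.

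**Figure D5:**
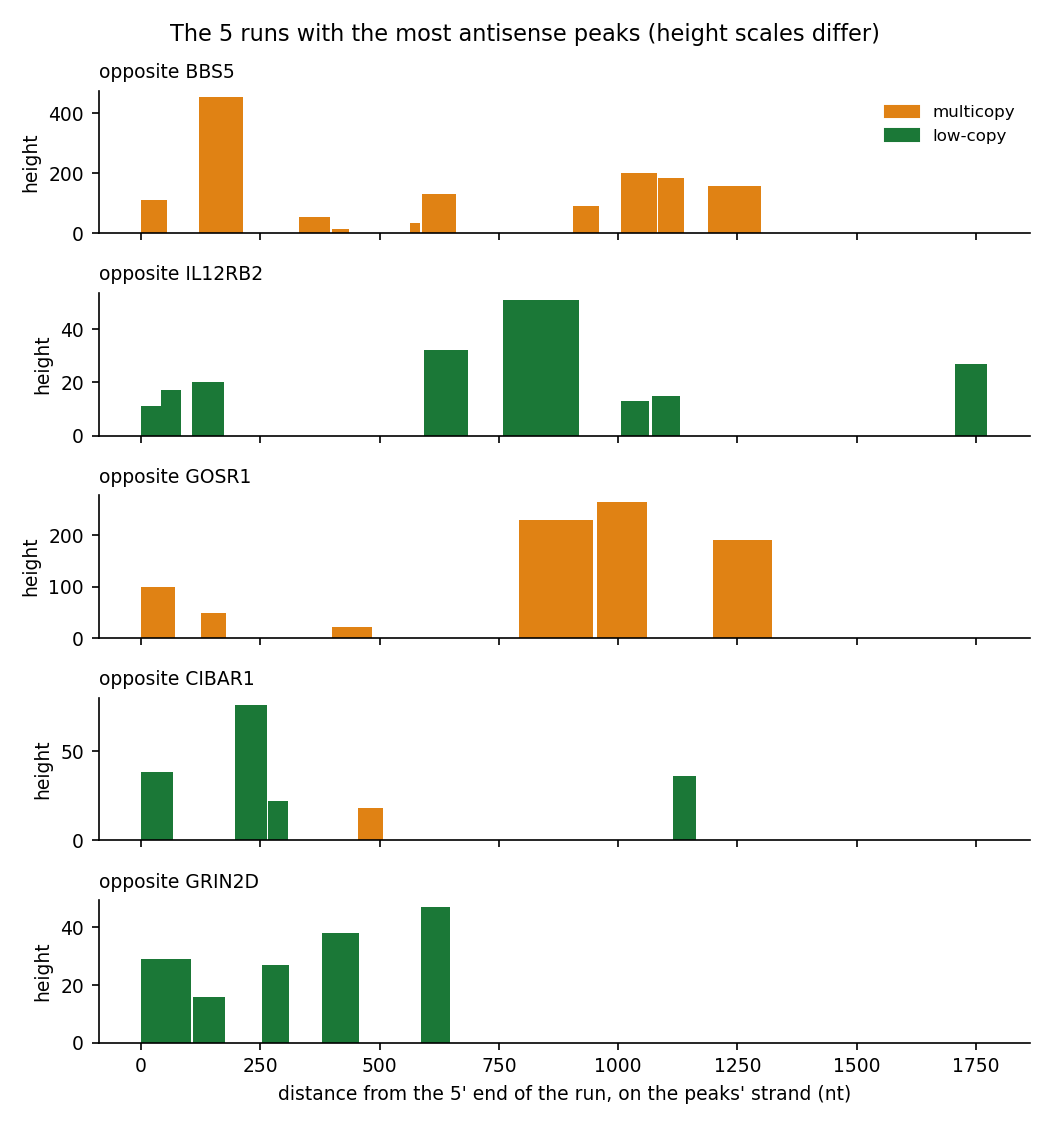
Height of each peak (linear scale, differing between panels) against distance in nt from the 5′ end of its run, for the 5 runs with the most antisense peaks; bar width is peak width and colour is copy group. The runs opposite BBS5 and GOSR1 were multicopy and reached 453 and 264, and those opposite IL12RB2, CIBAR1 and GRIN2D were low-copy apart from 1 peak and reached 51, 76 and 47.

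By opposite gene, PCGF3 had the most members, 12 with heights of 11 to 79, 11 of them low-copy and 1 with ACTAAC. BBS5 followed with 10, and ANKRD20A9P and IL12RB2 with 8 each. SHOC1 had 7 (heights 10 to 62), 6 of them low-copy and 2 with ACTAAC. When the nearest opposite gene was taken for each member, 483 of 606 genes had a single one.

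Peaks on both strands at the same place were rare. A peak of the opposite strand overlapped 25 of the 818 members by at least 1 nt (3.06%, 2.08 to 4.47). Of peaks in same-strand genes 0.163% were overlapped in this way (37 of 22692, 0.118 to 0.225). By the rule a member lies inside a gene of the opposite strand, so a peak overlapping it is mostly a same-strand genic peak. The same pairs can thus enter both shares, over groups of very different size, and the gap between them is not a separate result. The member was the taller in 16 of the 25 and the lower in 9, and 20 were multicopy. The tallest were 2 peaks opposite BBS5, at 453 and 109 with opposite peaks of 67 and 38, and 1 opposite the cytoskeletal linker gene MACF1, at 90 with an opposite peak of 28. Opposite PCGF3, 3 low-copy members of 55, 38 and 31 each overlapped a peak of 20 to 23 on the strand of PCGF3.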

How the data were processed

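The deposited peak list gives each peak's position (hg19), strand, summit and a height, used as a signal. Per the study's methods, the authors trimmed reads with cutadapt 1.3, aligned them with TopHat2 2.0.10 guided by UCSC hg19 gene annotation, collapsed duplicates by molecular barcode, discarded low-quality alignments, pooled technical replicates and called peaks per strand against input with MACS2 2.1.1.20160309. How alignment guided by annotation treats repeated sequence was not tested. Tracks of coverage were not used here.

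Peaks were classified with GENCODE (GRCh37, the same build). Genome counts of 20-mers covered both strands. Blastn 2.17.0 (word size 7, E-value limit 0.001) was run against RN7SL2. Wilson, Newcombe and order-statistic intervals and the exact McNemar test were used (scipy 1.17.1), after tests on simulated data. For McNemar the larger p of both sides was kept as the main value. Members, lists and tests were chosen with earlier results of these data known, and the copy number, 7SL and exon analyses were added after seeing the data. Named peaks were the 10 tallest, the 5 tallest with ACTAAC, the 5 tallest near an opposite start, the 3 tallest overlapped, and the top 5 runs, opposite genes and gene ends. Some repeat sequences are not reported here.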

Additional observations from a re-analysis of the deposited data

How the results depend on the processing

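No paired analysis was possible because the libraries were pooled before peaks were called and no value per library was used, and leaving out each replicate was not run for the same reason. Of 35 other settings that did not use copy number or exons 25 stayed within the main interval, call or 1.5 times the count. The number of antisense peaks was 490 at or above the median height of all nuclear peaks, against 818. Counting ACTAAT as well gave a motif share of 6.36%. Taking the tallest peak of each run gave a median height of 27. The share past a gene end was 7.21% within 1000 nt, 37.9% within 10000 nt, 76.7% within 50000 nt and 14.7% with ends of protein-coding genes only. The share near an opposite start was 3.3% within 500 nt, 14.7% within 5000 nt and 14.4% with the start of any transcript. Alternatives chosen after seeing the data moved more. With low-copy peaks only, the motif share was 11.8%, its difference to same-strand genic peaks 0.124 points in place of -5.74, the median height 23, the share past a gene end 32.5%, the share near an opposite start 7.96% and the share opposite a UTR exon 13.8%. The motif difference was 0.687 points with 1-copy peaks and -0.457 with multicopy peaks. The multicopy share was 67.9% from 2 copies and 58.6% from 100 copies. The share opposite a UTR exon was 57.6% at or above the median height. The settings that did not use copy number kept the negative motif difference, from -9.52 to -5 points.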

Other observations

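Antisense peaks made up different shares of the peaks on each chromosome. Chromosome 19 held 59 of 819 (7.2%) and chromosome 4 held 47 of 847 (5.55%), while chromosome 13 held 15 of 891 (1.68%) and chromosome 14 held 17 of 949 (1.79%). Of the 818 members 466 were on the minus strand and 352 on the plus strand, intergenic peaks were split 299 to 210, and peaks in same-strand genes 11347 to 11345. These shares were not tested, since members in 1 run or of 1 repeat are not independent.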
